A study of Mus musculus with 18 samples.

Results

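The 36 genes described here encode aminoacyl-tRNA synthetases, the enzymes that load each transfer RNA with its amino acid. They were picked by gene symbol alone from the 23420 rows of a table of read counts, and they comprise 20 genes for cytosolic enzymes and 16 for mitochondrial enzymes, the latter with symbols that end in 2. All 36 were among the 11762 genes that passed the filter on low counts. RNA-sequencing was done on NIH-3T3 cells, an immortalised mouse fibroblast line, either wild-type (WT) or carrying a CRISPR/Cas9 knockout of Nrf1 (Nrf1-KO), each in 3 biological replicates per group. Both lines received the vehicle DMSO or 200 nM carfilzomib (CFZ), an irreversible proteasome inhibitor, for 6 h or 24 h, which gave 6 groups and 18 libraries. The time in DMSO is not stated, so both CFZ times were set against the same DMSO libraries, and comparisons that use these share them. Whether the knockout line is a single clone is not stated, and effects of losing Nrf1 cannot be told apart from other differences between both lines.

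Cytosolic synthetases charge the tRNAs of general protein synthesis, and several of them sit together in a multisynthetase complex. Their mitochondrial counterparts are encoded in the nucleus, imported, and serve the small set of proteins translated inside mitochondria. When eIF2 is phosphorylated in the integrated stress response, the transcription factor ATF4 is made and binds C/EBP-ATF response elements, and many cytosolic synthetase genes are known ATF4 targets. Nrf1, encoded by Nfe2l1, is the transcription factor that induces proteasome subunit genes through antioxidant response elements when the proteasome is inhibited.

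The libraries held between 8333148 and 23917081 counted reads, and a single synthetase gene had between 51 and 22385 reads in a library. Nfe2l1, the targeted gene, was at 174, 185 and 181 CPM (TMM-scaled CPM, a read count over the scaled library total, the level used throughout) in Nrf1-KO cells in DMSO against 457, 437 and 449 CPM in WT cells, a log2 difference of -1.31. In the CFZ groups Nfe2l1 was also lower in the knockout, with log2 differences of -0.62 at 6 h and -1.47 at 24 h. Of 10 fibroblast markers, Fap had at most 3 reads in any library, whereas Col1a1, Col1a2 and Vim were abundant. The summed level of the 10 markers fell from 33024 to 35891 CPM in WT DMSO libraries to 8224 to 8510 CPM at 24 h of CFZ. In the knockout it fell from 27615 to 33906 CPM to 11077 to 13148 CPM. At 24 h 9 of 9 tested markers were called lower in WT cells, where 40.5% of all genes were. In the knockout 7 were lower, Pdgfra was higher (log2 change 0.10) and Vim was not called (0.02). Over all genes 41.1% were called lower there and 44.4% higher. The part of these marker changes in the synthetase results was not tested. Of 7 markers of other cell types, Epcam was at 0 in every library and the highest, Cdh1, reached 13.03 CPM. Upper-quartile scaling in place of TMM shifted the median log2 change of all genes in CFZ against DMSO by -0.07 to -0.14, and scaling by library size alone by -0.11 to -0.18, so small changes below are relative to that choice. In bulk RNA a lower level can mean fewer cells of a type or less RNA per cell, and these cannot be told apart.

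Promoter sequences are shown because the core letters of the ATF4 element were present in some of the cytosolic genes and in none of the mitochondrial genes searched. Promoters of 300 bases, 250 before and 50 after the RefSeq start on GRCm38.p6, were at hand for 13 of the cytosolic and 14 of the mitochondrial genes. The core letters of the C/EBP-ATF response element, TGATGNAA on either strand, stood in 5 of the 13 cytosolic promoters (38.5%), in 0 of the 14 mitochondrial ones and in 3.97% of all 32851 promoters. The antioxidant response element core, TGACNNNGC, stood in 3 of 13 cytosolic (Aars, Iars and Mars), 3 of 14 mitochondrial (Aars2, Lars2 and Nars2) and 12.4% of all promoters, and it overlapped no match to the first motif. A match says only that these letters are present. The windows below, 1 for each of the 5 genes, are 30 bases long, read on the strand of the gene, with the core in capitals. It reads TTNCATCA where it lies on the opposite strand.
Aars, alanyl-tRNA synthetase, chr8:111033840-111033869, plus strand, just after the start: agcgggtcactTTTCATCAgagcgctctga
Gars, glycyl-tRNA synthetase, chr6:55037960-55037989, plus strand, before the start: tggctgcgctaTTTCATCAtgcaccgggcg
Iars, isoleucyl-tRNA synthetase, chr13:49682126-49682155, plus strand, just after the start: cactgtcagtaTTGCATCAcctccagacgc
Tars, threonyl-tRNA synthetase, chr15:11399655-11399684, minus strand, before the start: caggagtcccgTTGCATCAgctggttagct
Yars, tyrosyl-tRNA synthetase, chr4:129189895-129189924, plus strand, just after the start: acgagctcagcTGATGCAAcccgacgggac
The match of Yars was on the strand of the gene and the other 4 shown were on the opposite strand.

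For wider context, the 250 bases before the start are given for Gars and Tars, which hold the core letters. They are also given for Iars2, the mitochondrial gene that fell furthest at 24 h in both lines, which does not hold these letters in its window.
Gars, chr6:55037751-55038000, plus strand: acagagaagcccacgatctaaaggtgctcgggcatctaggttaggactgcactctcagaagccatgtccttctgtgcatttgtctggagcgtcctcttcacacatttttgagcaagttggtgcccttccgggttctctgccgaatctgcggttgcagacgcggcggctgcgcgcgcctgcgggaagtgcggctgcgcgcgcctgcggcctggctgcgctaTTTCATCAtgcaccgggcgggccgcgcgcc
Tars, chr15:11399659-11399908, minus strand: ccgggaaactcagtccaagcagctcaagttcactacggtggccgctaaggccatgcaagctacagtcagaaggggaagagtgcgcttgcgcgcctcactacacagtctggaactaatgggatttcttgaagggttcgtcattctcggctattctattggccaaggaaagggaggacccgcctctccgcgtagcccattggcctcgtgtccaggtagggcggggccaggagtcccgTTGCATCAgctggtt
Iars2, chr1:185329402-185329651, minus strand: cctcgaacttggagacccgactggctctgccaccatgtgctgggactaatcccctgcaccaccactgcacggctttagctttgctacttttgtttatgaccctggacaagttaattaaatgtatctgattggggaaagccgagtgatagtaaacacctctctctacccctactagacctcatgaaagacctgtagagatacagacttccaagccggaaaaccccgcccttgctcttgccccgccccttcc
Among the 5 cytosolic genes with these core letters, 5 were called higher and 0 lower at 6 h of CFZ in WT cells, with a median log2 change of 0.28. The same count held in Nrf1-KO cells, with a median of 0.57. Of the 8 cytosolic genes whose window lacked the letters, 7 rose at 6 h in each line, with medians of 0.15 and 0.14. Over all genes 35.6% were called higher and 36.2% lower at 6 h in WT cells, and 34.5% and 35% in the knockout. At 24 h in WT cells the 5 genes with the letters gave 2 higher (Aars and Iars) and 3 lower (Gars, Tars and Yars). There 43.2% and 40.5% of all genes were called, so that with 5 genes these counts were near the background. At 24 h in the knockout the counts were 4 higher and 1 lower (Yars), with a median log2 change of 0.14. Over all genes 44.4% were called higher and 41.1% lower in that comparison. The list is short, the motif was searched with results known, and the difference between both subsets was not tested.

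Per kilobase of exon, the cytosolic mRNAs were the more abundant class. In WT cells in DMSO their levels per kilobase ran from 13.8 CPM for Farsa to 184 CPM for Gars, with a median of 42.5 CPM, against 1.06 CPM for Mars2 to 16.7 CPM for Lars2, with a median of 3.93 CPM, for the mitochondrial class. Lars2, which makes the mitochondrial leucyl enzyme, was the one mitochondrial gene above the lowest cytosolic gene. Gars and Kars encode both the cytosolic and the mitochondrial glycyl and lysyl enzymes from 1 gene each, and Eprs encodes a glutamyl and a prolyl enzyme in 1 protein.

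After 6 h of CFZ in WT cells the cytosolic class moved upwards almost as a whole, by modest amounts. Of 20 genes, 17 rose, 0 fell and 3 (Lars, Mars and Vars) did not pass the test, where 35.6% of all tested genes were called higher and 36.2% lower. The median log2 change of the class was 0.24, compared with -0.02 over all genes. The changes ran from -0.09 for Vars to 0.57 for Nars, so that none of the 20 reached a 1.5-fold change, where 10.9% of all genes were called at least that much higher and 14% lower. The number of genes called higher depended on scaling, and was 11 under upper-quartile scaling but 10 if only library size was used, although the class median stayed positive at 0.13 and 0.11.

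At 24 h in WT cells cytosolic genes were called in both directions. Of 20 genes, 12 were higher than in DMSO and 8 lower, where 43.2% and 40.5% of all genes were called. The count called lower was near the background, and no gene was left uncalled. The median was 0.20 against 0.02 for all genes. The 12 that were higher at both times were Aars, Cars, Farsa, Farsb, Hars, Iars, Kars, Nars, Qars, Rars, Sars and Wars. Dars, Eprs, Gars, Tars and Yars had risen at 6 h and were below DMSO at 24 h, and Lars, Mars and Vars were lower at 24 h only. Sars did not keep its sign in every scaling, at 0.11 and 0.12 at 6 h and 24 h with TMM, -0.02 at 6 h with library size alone and -0.02 at 24 h with upper-quartile scaling.

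**Figure D1:**
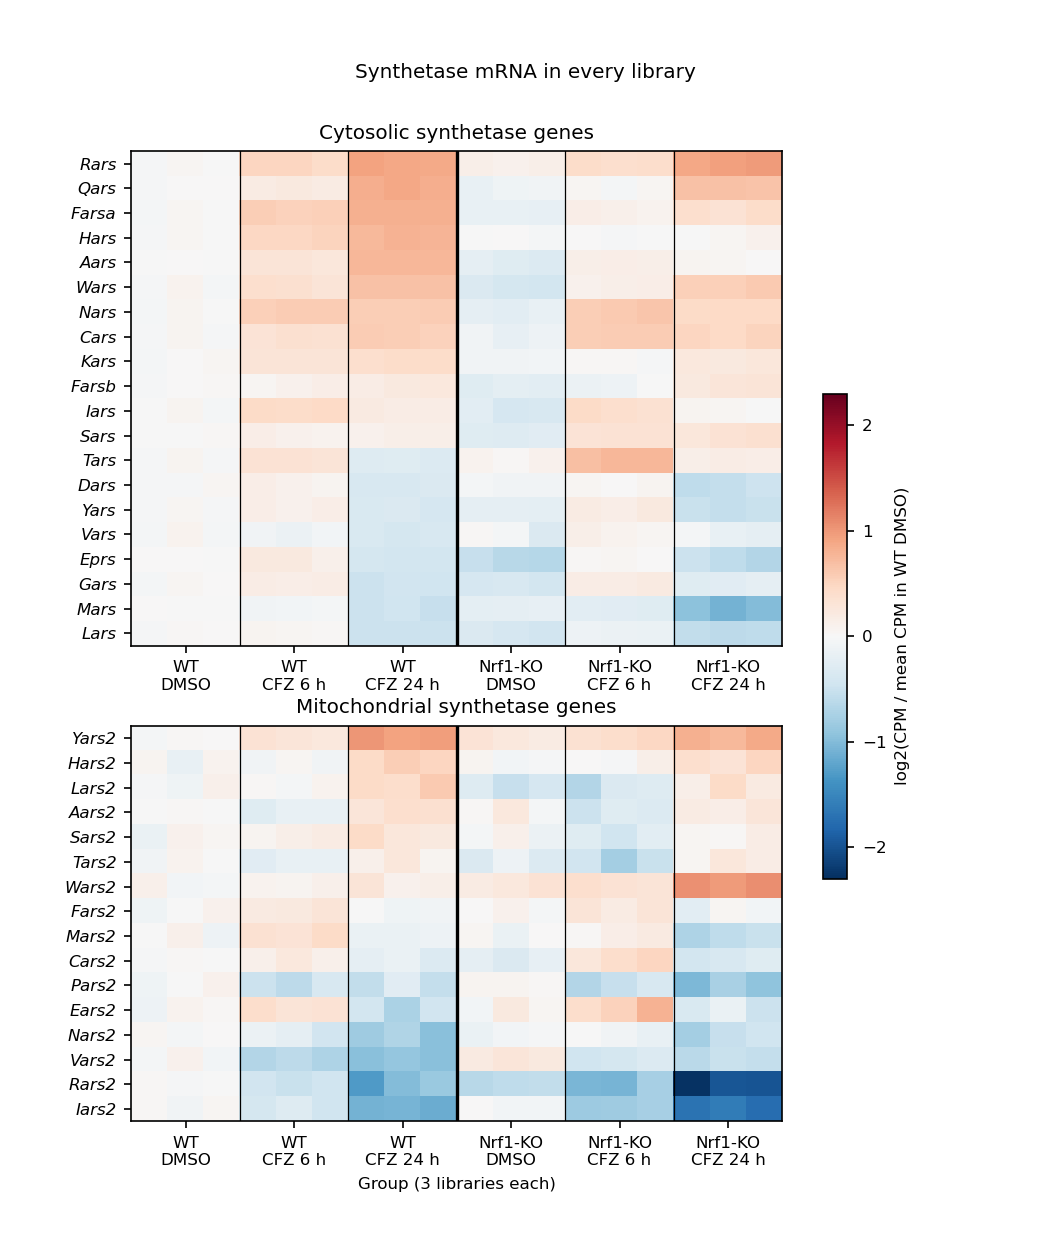
Heat map of log2(CPM / mean CPM in WT DMSO) for the 20 cytosolic (top) and 16 mitochondrial (bottom) synthetase genes, 1 row per gene and 1 column per library, ordered within class by the change at 24 h of CFZ in WT cells; red is higher and blue lower. The 3 libraries of a group resemble each other, the cytosolic block is mostly red at 6 h in WT cells, 12 rows stay red and 8 turn blue at 24 h in WT cells, and Iars2 and Rars2 are the deepest blue.

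Rars (arginyl-tRNA synthetase, chr11:35808381-35834506) gave the widest change of the cytosolic class in WT cells at 24 h. It was at 158, 165 and 159 CPM in WT DMSO, 226, 226 and 215 CPM at 6 h, and 304, 299 and 293 CPM at 24 h. The 3 groups did not overlap, and the log2 change was 0.47 (SE 0.03) at 6 h and 0.90 (SE 0.03) at 24 h, the latter with an adjusted p of 9.49e-22 by edgeR's quasi-likelihood test. Qars, the glutaminyl enzyme, moved late, from 136 to 139 CPM in DMSO and 156 to 162 CPM at 6 h up to 245 to 254 CPM at 24 h, a log2 change of 0.85 (SE 0.03). Nars, the asparaginyl enzyme, moved early and stayed, at 442, 479 and 455 CPM in DMSO, 671, 687 and 686 CPM at 6 h, and 676, 681 and 684 CPM at 24 h. Its 6 h and 24 h libraries overlapped, and the log2 change was 0.57 (SE 0.03) at each time. Farsa, the alpha chain of the phenylalanyl enzyme, rose by 0.55 and 0.82 on the log2 scale, while Farsb, the beta chain of the same enzyme, rose by 0.10 and 0.22.

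Gars (chr6:55038007-55079500) showed the rise and fall most plainly. Its WT libraries were at 555, 589 and 574 CPM in DMSO, 647, 639 and 641 CPM at 6 h, and 407, 421 and 415 CPM at 24 h. All 24 h libraries lay below all DMSO libraries, and the log2 change went from 0.17 (SE 0.03, adjusted p = 3.41e-05) to -0.47 (SE 0.03, adjusted p = 1.77e-14). Eprs followed the same course, with means of 438 ± 4.27 CPM in DMSO, 498 ± 22.1 CPM at 6 h and 328 ± 1.80 CPM at 24 h (SD, n = 3), as did Tars, with 239 ± 8.18, 298 ± 4.72 and 195 ± 3.31 CPM. Tested directly between both times, 9 cytosolic genes were higher at 24 h than at 6 h, 9 were lower and 2 (Nars and Sars) were not called, where 36.9% of all genes were called higher and 35.4% lower. The changes between times reached -0.63 for Gars and 0.65 for Qars.

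In Nrf1-KO cells the early rise of the cytosolic class was present too. At 6 h 18 of 20 genes rose, 0 fell and 2 (Hars and Mars) did not pass the test, where 34.5% of all genes were called higher and 35% lower, and the median was 0.35 against -0.01 for all genes. Here 6 genes exceeded a 1.5-fold rise (Cars, Eprs, Iars, Nars, Sars and Tars), as did 9.84% of all genes. At 24 h 13 were higher, 4 lower (Dars, Lars, Mars and Yars) and 3 not called, where 44.4% and 41.1% of all genes were called, with a median of 0.31 against 0.03. With library size alone 8 genes, not 4, were called lower at 24 h, and the median was 0.13. Between 6 h and 24 h in the knockout 6 genes went up and 12 went down, where 38.7% and 38.3% of all genes were called.

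The responses of both lines were compared by the interaction of line and CFZ, in which a positive value means a more positive response in Nrf1-KO cells. At 6 h 12 cytosolic genes were called higher and 4 lower in this test, where 19.8% and 18.4% of all genes were called, with a median of 0.19 against 0.02 for all genes. At 24 h the counts were 9 and 5, where 29.7% and 30% of all genes were called, with a median of 0.08 against 0.00. With library size alone 8 genes were called lower at 24 h and the median was 0.00. The 8 genes with a more positive response at both times included Eprs, Gars, Iars, Sars and Tars, and the 3 with a less positive response at both times were Farsa, Hars and Kars. Both interactions use the same DMSO libraries, so that agreement between the times is partly built in. The share of all genes called alike at both times was not counted.

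Hars, the histidyl-tRNA synthetase, separated the lines most clearly. In WT cells it went from 84.7, 89.4 and 86.1 CPM in DMSO to 121, 121 and 123 CPM at 6 h and 145, 151 and 150 CPM at 24 h. In Nrf1-KO cells it stayed between 83.8 and 93.3 CPM in all 9 libraries, overlapping the WT DMSO range. The log2 changes in the knockout were 0.00 (SE 0.04, adjusted p = 0.997) and 0.06 (SE 0.04, adjusted p = 0.137). With library size alone they were -0.11 and -0.12, and both were called lower. The interaction was -0.49 (SE 0.05, adjusted p = 1.1e-08) at 6 h and -0.72 (SE 0.05, adjusted p = 2.58e-13) at 24 h. Hars lies head to head with Hars2, and 7.97% of its exon length overlaps that gene on the other strand in GENCODE M21, so reads of the shared stretch cannot be assigned with certainty. Hars2 itself showed no called interaction, at 0.07 and -0.10.

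Aars (chr8:111033144-111057664) was higher in WT than in knockout cells in each treatment, with the widest gap at 24 h. WT libraries were at 784, 797 and 787 CPM in DMSO, 973, 964 and 948 CPM at 6 h, and 1345, 1342 and 1346 CPM at 24 h. Knockout libraries were at 685, 650 and 634 CPM, then 867, 880 and 869 CPM, then 828, 818 and 790 CPM. The gain in WT cells thus continued to 24 h and that in the knockout did not, and the interaction was 0.13 (SE 0.05) at 6 h and -0.46 (SE 0.05) at 24 h. In the annotation 14.3% of the exon length of Aars overlaps Exosc6 on the same strand, and the part of reads from Exosc6 was not tested.

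Sars, the seryl enzyme (chr3:108424865-108445209), had the opposite order. Its WT libraries were between 344 and 353 CPM in DMSO, 369 and 385 CPM at 6 h, and 371 and 382 CPM at 24 h. The knockout libraries started lower, at 283 to 289 CPM, and reached 431 to 440 CPM at 6 h and 419 to 449 CPM at 24 h, above every WT library. The interaction was 0.49 (SE 0.05) at 6 h and 0.48 (SE 0.05) at 24 h. Gars behaved likewise at 24 h, with 471, 478 and 498 CPM in the knockout after 437, 446 and 428 CPM in DMSO, whereas WT cells fell over that time. Its knockout change of 0.14 at 24 h turned to -0.04 with library size alone, but its interaction of 0.61 (SE 0.05, adjusted p = 7.05e-13) was the largest positive one of the cytosolic class. Eprs in the knockout was at 303, 281 and 277 CPM in DMSO, 448, 451 and 439 CPM at 6 h, and 312, 290 and 273 CPM at 24 h. Its change at 24 h of 0.03 was not called, but with library size alone it was -0.16 and called lower. The interaction of Eprs was 0.45 at 6 h and 0.44 at 24 h.

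**Figure D2:**
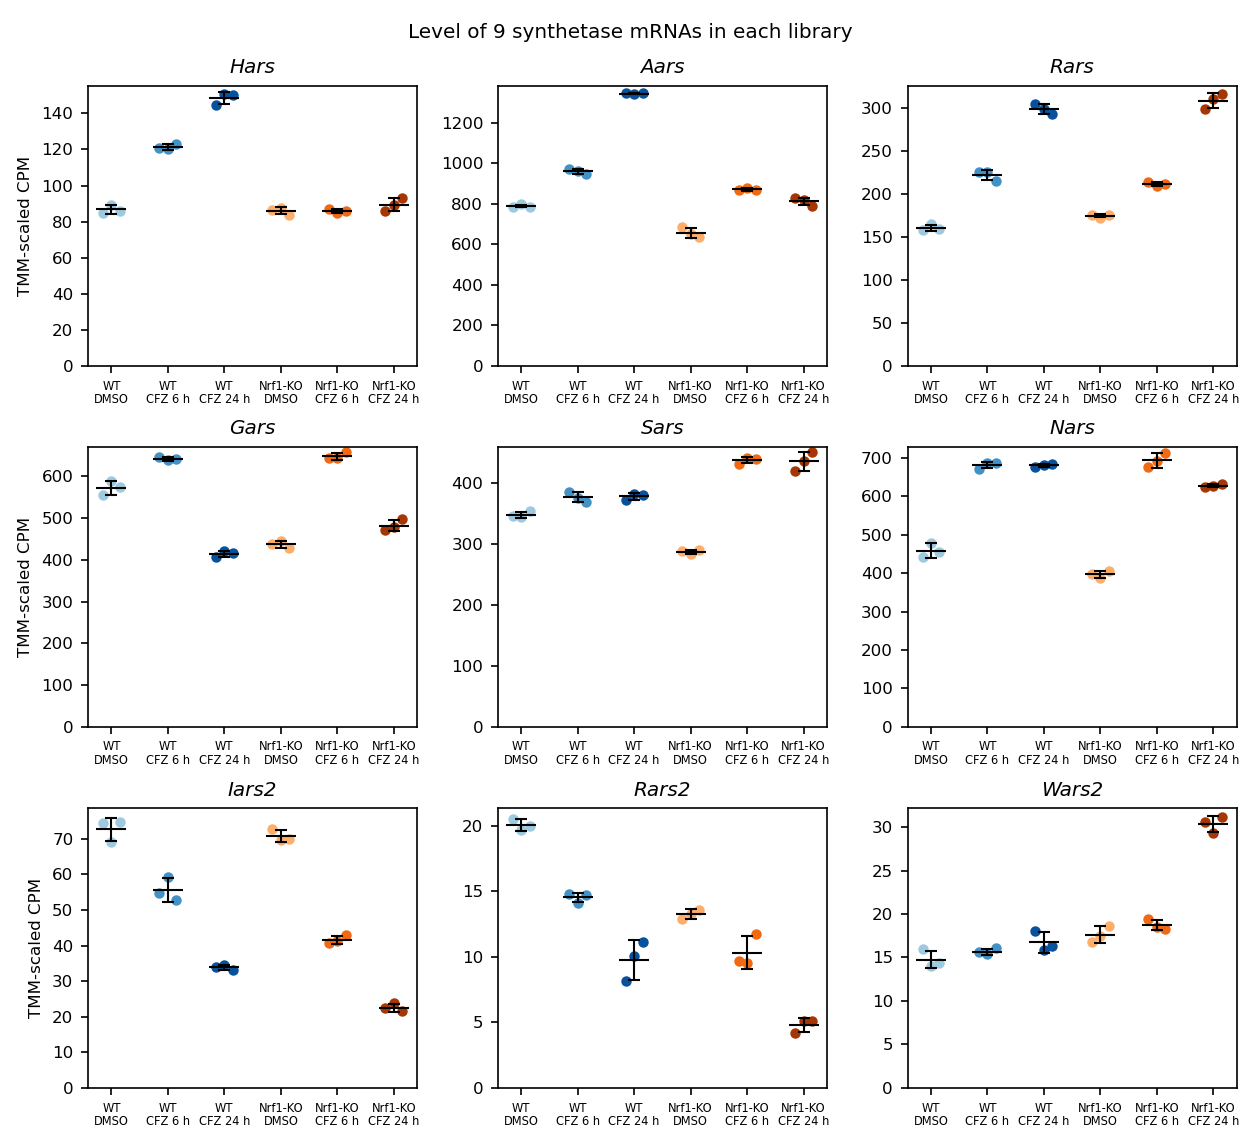
TMM-scaled CPM of 9 synthetase genes in each of the 18 libraries (points), with the mean and SD of each group of 3 (black bars); every axis starts at 0. Hars and Aars reach their highest level in WT cells at 24 h, Sars is highest in the CFZ-treated knockout, and Iars2 and Rars2 are lowest in the knockout at 24 h.

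Kars rose less in the knockout than in WT cells, with log2 changes of 0.08 against 0.30 at 6 h (the former -0.03 with library size alone) and 0.31 against 0.41 at 24 h. Iars, the isoleucyl enzyme, was at 260, 274 and 255 CPM in WT DMSO, 358, 354 and 360 CPM at 6 h and 303, 296 and 297 CPM at 24 h, against 223, 202 and 202 CPM, then 356, 342 and 336 CPM, then 275, 271 and 261 CPM in the knockout. Both lines therefore peaked at 6 h at similar levels from different starting points. Rars and Qars, the cytosolic genes with the widest change in WT cells at 24 h, changed by 0.82 and 0.79 in the knockout, and their interactions at 24 h of -0.07 and -0.06 were not called. Wars, the tryptophanyl enzyme, gave the largest change of the class in the knockout at 24 h, 0.96 (SE 0.04), from 88.2, 84.0 and 82.9 CPM to 163, 164 and 168 CPM.

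**Figure D3:**
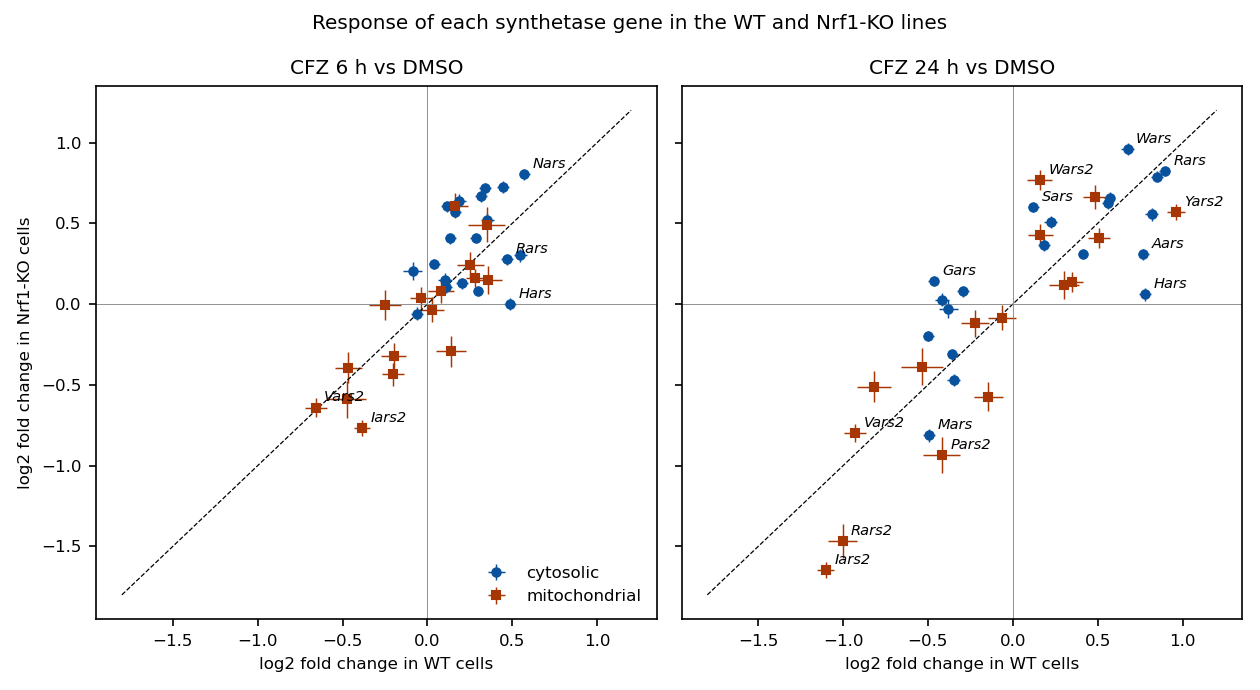
log2 fold change of each synthetase gene in Nrf1-KO cells (y axis) against that in WT cells (x axis) at 6 h (left) and 24 h (right) of CFZ; blue circles are cytosolic and brown squares mitochondrial genes, bars are standard errors, and the dashed line marks equal change. At 6 h most cytosolic genes lie above 0 on both axes and Hars lies on the horizontal axis at 0.00; at 24 h Gars and Sars lie above the line, Hars and Aars below it, and Iars2 and Rars2 are at the lower left.

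The lines also differed before treatment. In DMSO 14 of 20 cytosolic genes were lower in the knockout, 1 (Rars) was higher (2 without WT DMSO replicate 2 or KO DMSO replicate 2) and 5 were not called, where 25.7% of all genes were called higher and 29.1% lower, and the median was -0.21 against -0.02 for all genes. Eprs had the widest gap, -0.61 (SE 0.04), with 442, 438 and 433 CPM in WT against 303, 281 and 277 CPM in knockout libraries. At 6 h of CFZ 10 were lower in the knockout and 4 higher (Cars, Sars, Tars and Vars), where 30.8% and 30.5% of all genes were called, and library size alone gave 7 higher. At 24 h 13 were lower and 4 higher (Gars, Sars, Tars and Vars), where 36.4% and 35.6% of all genes were called. Tars was thus the cytosolic gene most above WT in the treated knockout, by 0.42 at 6 h and 0.45 at 24 h, while Hars and Aars were furthest below at 24 h, each at -0.73.

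The mitochondrial class showed no common direction. In WT cells at 6 h 4 of 16 genes rose, 7 fell and 5 were not called, with a median of -0.01, and at 24 h 7 rose, 7 fell and 2 were not called, with a median of -0.10. In Nrf1-KO cells the counts were 4, 7 and 5 at 6 h, with a median of -0.02, and 6, 7 and 3 at 24 h, with a median of -0.10. With 16 genes these shares were near the background shares given above for the same comparisons. With either upper-quartile scaling or library size alone only 2 mitochondrial genes were called higher at 6 h in each line, and upper-quartile scaling called 4 higher at 24 h in WT cells. Without KO DMSO replicate 3, 2 rather than 4 were called higher at 6 h in the knockout. The changes of single genes at 24 h ran from -1.10 for Iars2 to 0.96 for Yars2 in WT cells and from -1.65 for Iars2 to 0.77 for Wars2 in the knockout.

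Iars2, the mitochondrial isoleucyl enzyme (chr1:185284726-185329396), fell in both lines and at both times. WT libraries went from 74.3, 69.0 and 74.8 CPM to 54.8, 59.3 and 52.9 CPM at 6 h and 34.1, 34.5 and 33.1 CPM at 24 h, and knockout libraries from 72.8, 69.8 and 69.9 CPM to 40.8, 41.2 and 42.9 CPM and then 22.4, 23.7 and 21.5 CPM. No group overlapped the next. The fall was larger in the knockout, with interactions of -0.38 (SE 0.07) at 6 h and -0.54 (SE 0.07) at 24 h. In the annotation 24.2% of its exon length overlaps genes on the other strand, mainly Rab3gap2, and the part of their reads was not tested.

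Rars2, the arginyl enzyme (chr4:34614957-34660167), was already lower in the untreated knockout, at 12.9, 13.3 and 13.6 CPM against 20.54, 19.66 and 19.96 CPM, a log2 difference of -0.59 (SE 0.07). It fell to 8.13, 10.1 and 11.2 CPM at 24 h in WT cells and to 4.15, 5.10 and 5.07 CPM in the knockout, changes of -1.003 (SE 0.08) and -1.47 (SE 0.10). Vars2, the valyl enzyme, fell, with log2 changes of -0.66 and -0.93 in WT cells and -0.64 and -0.80 in the knockout and with no called interaction. Pars2, the prolyl enzyme and one of the rarest of these mRNAs at 3.87 to 8.55 CPM, fell at 24 h, with log2 changes of -0.42 in WT cells and -0.93 in the knockout. Nars2 was called lower at both times in WT cells, at -0.25 and -0.82, and only at 24 h in the knockout, at -0.51.

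In the other direction, Yars2, the tyrosyl enzyme (chr16:16302965-16309640), rose from 23.3, 24.3 and 24.0 CPM to 30.0, 29.0 and 28.1 CPM at 6 h and 48.4, 45.2 and 46.2 CPM at 24 h in WT cells. Its change of 0.96 (SE 0.05) exceeded that of every cytosolic gene at that time. In the knockout it went from 29.6, 28.3 and 27.1 CPM to 42.1, 40.0 and 43.5 CPM at 24 h, a smaller change of 0.57 (SE 0.05) with an interaction of -0.39 (SE 0.07). Wars2, the tryptophanyl enzyme (chr3:99141068-99239186), stood between 14.1 and 19.4 CPM in the DMSO and 6 h libraries of both lines and between 15.8 and 18.1 CPM in WT cells at 24 h, but at 30.6, 29.3 and 31.1 CPM in the knockout at 24 h. This knockout change of 0.77 (SE 0.06) against 0.16 (SE 0.07) in WT cells gave, together with Gars, the largest positive interaction of the 36 genes at 24 h, 0.61 (SE 0.10, adjusted p = 1.94e-06). Fars2, the phenylalanyl enzyme, rose at 6 h by 0.25 and 0.24 and was not called at 24 h. Ears2, the glutamyl enzyme, rose at 6 h by 0.35 and 0.49 and fell at 24 h, with log2 changes of -0.53 and -0.39. Aars2 and Tars2 took the reverse course, falling at 6 h (-0.20 each in WT cells, -0.43 and -0.32 in the knockout) and rising at 24 h by 0.35 and 0.16 in WT cells and by 0.14 and 0.43 in the knockout.

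The interaction of line and CFZ in the mitochondrial class called 1 higher (Cars2) and 2 lower (Iars2 and Sars2) at 6 h, and 2 higher (Tars2 and Wars2) and 6 lower at 24 h, with medians of -0.04 and -0.06, where 19.8% and 18.4% of all genes were called at 6 h and 29.7% and 30% at 24 h. The 2 called higher at 24 h became 1 without any of WT DMSO replicate 2, WT CFZ 24 h replicate 3, KO DMSO replicate 1 or 3 and KO CFZ 24 h replicate 2, and 4 without KO CFZ 24 h replicate 1. The difference between both classes was not tested. In DMSO 3 were higher in the knockout (Vars2, Wars2 and Yars2) and 4 lower (Cars2, Lars2, Rars2 and Tars2), with a median of -0.02, where 25.7% and 29.1% of all genes were called. At 6 h the counts were 3 higher and 6 lower, against 5 and 6 higher with upper-quartile scaling and library size alone, and at 24 h 2 higher and 8 lower, and 5 lower without KO CFZ 24 h replicate 1 or 2. The shares over all genes were 30.5% higher and 30.8% lower at 6 h and 35.6% higher and 36.4% lower at 24 h. Between 6 h and 24 h, 5 mitochondrial genes went up and 8 down in WT cells, and 7 went up and 9 down in the knockout, where 36.9% and 35.4% of all genes were called in WT cells and 38.7% and 38.3% in the knockout.

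Setting the genes for the same amino acid side by side removes the choice of scaling, because both counts come from the same library. There were 15 such pairs, in which Fars2 counted against both chains of the cytosolic phenylalanyl enzyme. The cytosolic share was higher with CFZ than in DMSO in 11 and 10 of the 15 pairs at 6 h and 24 h in WT cells and in 12 and 10 in the knockout, with median changes of log2(cytosolic count / mitochondrial count) of 0.30, 0.43, 0.44 and 0.50. Rars against Rars2 opened furthest in WT cells, from a log2 ratio of 3.00 ± 0.06 in DMSO to 3.94 ± 0.06 at 6 h and 4.94 ± 0.26 at 24 h (SD, n = 3). Yars against Yars2 went the other way, from 3.67 ± 0.03 to 3.52 ± 0.05 and 2.35 ± 0.06. Hars against Hars2 differed most between lines in the negative direction, with interactions of -0.57 and -0.62. These pair values are given as a description, with no test.

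**Figure D4:**
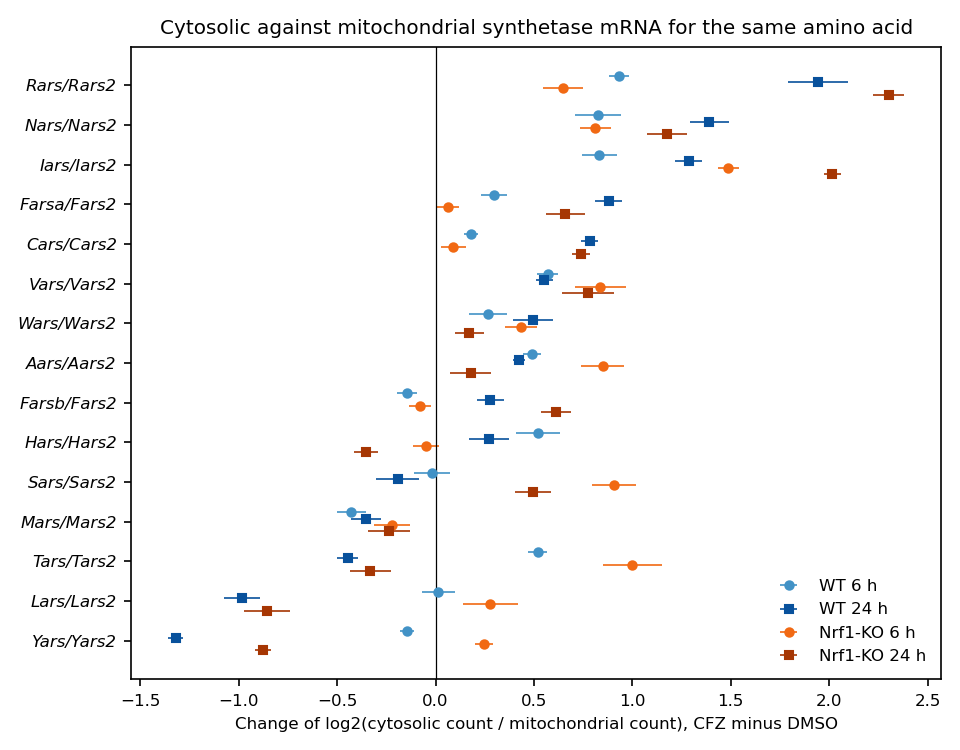
Change of log2(cytosolic count / mitochondrial count) with CFZ for the 15 pairs that serve the same amino acid, in WT (blue) and Nrf1-KO cells (orange and brown) at 6 h (circles) and 24 h (squares); bars are the standard error from the 3 libraries of each group. Rars/Rars2, Nars/Nars2 and Iars/Iars2 lie furthest right, and Yars/Yars2 and Lars/Lars2 lie furthest left at 24 h.

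Summed over each class, cytosolic synthetase mRNA went from 5198 ± 103 CPM (SD, n = 3) in WT DMSO to 6214 ± 43.4 CPM at 6 h and 6068 ± 17.5 CPM at 24 h, and from 4403 ± 88.8 to 6089.5 ± 14.8 and 5408 ± 13.5 CPM in the knockout. The mitochondrial sums were 509 ± 17.3, 484 ± 4.63 and 558 ± 14.9 CPM in WT cells and 463 ± 8.76, 418 ± 27.5 and 507 ± 28.0 CPM in the knockout. The ratio of cytosolic to mitochondrial counts was 10.2 ± 0.481 in WT DMSO, 12.8 ± 0.210 after 6 h and 10.9 ± 0.300 after 24 h. In the knockout it was 9.50 ± 0.0631, 14.6 ± 0.940 and 10.7 ± 0.615. The ratio thus peaked at 6 h in both lines, above every library of the other groups of that line. The mitochondrial sum leaned on Lars2, which held 172 to 201 CPM of it in WT DMSO and 245 to 280 CPM at 24 h. Without Lars2, a choice made after its level had been seen, the ratio was 16.1 ± 0.363, 21.0 ± 0.373 and 20.3 ± 0.247 in WT cells and 13.7 ± 0.330, 21.8 ± 0.843 and 19.1 ± 0.594 in the knockout, so that at 24 h it also lay above DMSO by more than the spread between libraries.

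Lars2 was set beside Rn45s, the row for the 45S ribosomal RNA precursor, which was looked up after the levels had been seen. The mean of Lars2 was 185, 189 and 259 CPM and that of Rn45s 1667, 1336 and 2368 CPM in WT DMSO, 6 h and 24 h. In the knockout the means were 141, 138 and 223 CPM for Lars2 and 1506, 1266 and 2384 CPM for Rn45s. Both were highest at 24 h in each line, whereas at 6 h the mean of Rn45s was lower than in DMSO and that of Lars2 stayed within the SD of its DMSO libraries. The library with the highest Lars2 was also the one with the highest Rn45s in 4 of 6 groups, and the same held for the lowest in 4 of 6. With 3 libraries in a group some such matches arise by chance, and their number was not tested. The part of ribosomal RNA in the Lars2 values was not tested.

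**Figure D5:**
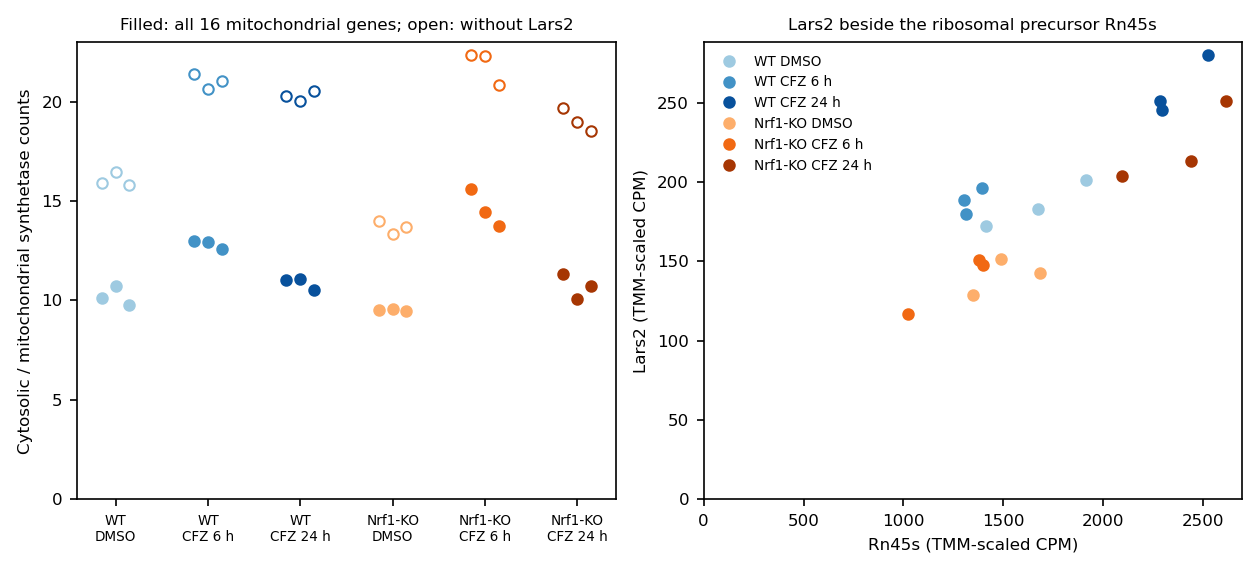
Left, counts of all cytosolic over all mitochondrial synthetase genes in each library, with Lars2 included (filled) or left out (open); right, Lars2 against Rn45s in TMM-scaled CPM for the 18 libraries, coloured by group. The filled points peak at 6 h in both lines, the open points stay up at 24 h, and the 24 h libraries of both lines are highest on both axes of the right panel.

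The enzymes of the multisynthetase complex were found among both the genes that were higher and those that were lower at 24 h. Of the 8 complex enzymes measured (Dars, Eprs, Iars, Kars, Lars, Mars, Qars and Rars), 6 rose at 6 h in WT cells and 4 rose and 4 fell at 24 h, with a median of -0.08. Of the other 12 cytosolic genes 11 rose at 6 h, and 8 rose and 4 fell at 24 h, with a median of 0.39. In the knockout the complex enzymes gave 7 higher at 6 h and 4 higher and 3 lower at 24 h. Over all genes in the knockout 34.5% were called higher and 35% lower at 6 h, and 44.4% and 41.1% at 24 h. The knockout counts at 24 h were thus near the background. In WT cells 35.6% of all genes were called higher at 6 h, and 43.2% higher and 40.5% lower at 24 h, so that the counts of complex enzymes at 24 h were near the background. The difference between both subsets was not tested. Among the scaffold genes of the complex, Aimp1 was not called at 24 h in WT cells at -0.01, Aimp2 fell (-0.51), and Eef1e1 rose by 0.82.

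The genes around the synthetases were counted from lists drawn up with earlier results known. Of 14 tested helpers of aminoacylation (15 listed), 4 rose and 7 fell at 6 h in WT cells and 5 rose and 8 fell at 24 h, with medians of -0.25 and -0.41. Among those that fell at 24 h, the change was -1.45 for Pstk, which acts in selenocysteine-tRNA synthesis, and -1.12 for Dtd1, a D-aminoacyl-tRNA deacylase. It was -0.86 for Pet112, a subunit of the mitochondrial glutamyl-tRNA amidotransferase. In the knockout 2 rose and 10 fell at 6 h and 4 rose and 9 fell at 24 h. Of 5 cytosolic elongation factor genes 5 rose at 6 h and 4 at 24 h in WT cells, with Eef1b2 at 0.64 and Eef2 at 0.60. Of 9 mitochondrial translation factor genes 4 rose and 2 fell at 6 h and 4 rose and 1 fell at 24 h, with Gfm1 at 0.92, Tufm at 0.89 and Mrrf, the ribosome recycling factor, at -0.89. Over all genes 35.6% were called higher and 36.2% lower at 6 h in WT cells, 43.2% and 40.5% at 24 h, 34.5% and 35% at 6 h in the knockout, and 44.4% and 41.1% at 24 h, and several of these short lists lay near those shares.

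Genes of the integrated stress response also mostly rose at 6 h. Of 20 genes, 16 rose and 4 fell at 6 h in WT cells, with a median of 0.63, and 10 rose and 9 fell at 24 h, with a median of 0.07, where 35.6% and 36.2% of all genes were called at 6 h and 43.2% and 40.5% at 24 h, so that the counts at 24 h were near the background. In the knockout 16 rose and 1 fell at 6 h, with a median of 1.03, and 12 rose and 8 fell at 24 h, with a median of 0.43, where 34.5% and 35% of all genes were called at 6 h and 44.4% and 41.1% at 24 h. Atf4 mRNA rose by 0.55 and 0.40 in WT cells and by 0.60 and 0.35 in the knockout, with interactions of 0.05 and -0.04 that were not called. Atf3, Ppp1r15a and Slc7a11 rose by 4.09, 3.11 and 1.96 at 24 h in WT cells and by 7.16, 4.18 and 3.50 in the knockout, and Atf5 fell by 1.91 and 2.23. The interaction called 15 of the 20 higher at each time, where 19.8% of all genes were called higher at 6 h and 29.7% at 24 h. The ATF4 protein was not measured, and its part in the synthetase changes was not tested.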

How the data were processed

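RNA was sequenced in 18 libraries of 2 NIH-3T3 lines, made with a stranded mRNA kit and read as paired 125-base reads. The deposited values are whole read counts per gene, which the authors made with STAR in an analysis application that also runs DESeq2. Versions, genome build, annotation and the use of strand in counting are not given in the sources used here. Library totals set the precision, which is lowest for the rarest mitochondrial genes. The table holds 23420 genes, of which 6577 had no read.

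Groups were taken from the sample labels. Genes were filtered with filterByExpr (minimum count 10, minimum total 15), which left 11762, scaled by TMM and fitted with edgeR 4.0.16 in R 4.3.3 as 1 quasi-likelihood model of 6 groups. The 11 comparisons used quasi-likelihood tests with Benjamini-Hochberg adjustment over all genes tested, and an adjusted p below 0.05 was called. Fold changes are log2 values with standard errors (SE). The replicates are called biological, with no statement of separate cultures, so p-values measure the spread between these samples. Scripts were tested on simulated data. Alternatives were DESeq2 1.42.0, upper-quartile scaling, library size alone, other filters, only the groups compared, a replicate block, a minimum fold of 1.5, and leaving out each library.

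The members and the gene lists were chosen with earlier results of these data known. Values in every library were given for the genes with the largest and smallest changes or interactions in each class, plus Eprs, Gars and Kars, and other members where a sentence turned on them. Rn45s and the ratio without Lars2 were added after the values had been seen. Gene coordinates and exon lengths are from GENCODE M21 (GRCm38) and promoters from RefSeq (GRCm38.p6), which may differ from the authors' annotation. The subunit now called Gatb is listed as Pet112. Some items that the rule for named genes or the motif search would include are not reported here.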

Additional observations from a re-analysis of the deposited data

Results flagged for a closer look

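The results below drew attention because the response to CFZ differed between Nrf1-KO and WT cells by the interaction test of edgeR's quasi-likelihood model, with Benjamini-Hochberg adjustment over all genes tested. They cover the 18 genes described in full, and other synthetase genes with a called interaction, such as Tars, Cars2 and Sars2, are counted in the report. Values are log2 differences of the response, Nrf1-KO minus WT. At 6 h the response was more positive in the knockout for Sars (0.49), Eprs (0.45), Gars (0.40), Iars (0.28), Nars (0.23) and Aars (0.13), and less positive for Hars (-0.49), Iars2 (-0.38), Farsa (-0.24), Kars (-0.22) and Rars (-0.19). At 24 h it was more positive for Gars (0.61), Wars2 (0.61), Sars (0.48), Eprs (0.44) and Iars (0.18), and less positive for Hars (-0.72), Iars2 (-0.54), Pars2 (-0.51), Aars (-0.46), Rars2 (-0.46), Yars2 (-0.39), Farsa (-0.26) and Kars (-0.10). Aars was the one gene among these with opposite signs at both times. No group had enough libraries for a check of single outlying samples.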

How the results depend on the processing

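For the 18 genes described in full, 1775 of 1854 values under an alternative kept their side of the threshold, 64 lost the call and 8 gained one. Another 7 turned sign with a call in the main or the alternative setting. Sign changes between 2 uncalled values were counted among the 1775. Of 664 alternative counts of called members, 79 moved by over 1.5 times, and the cause was not tested beyond what each setting does by construction.

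With a minimum fold of 1.5, the counts of cytosolic genes higher and lower were 0 and 0 for WT 6 h, 6 and 0 for WT 24 h, 6 and 0 in Nrf1-KO cells at 6 h, 6 and 1 at 24 h, 1 and 3 between times in WT cells, 1 and 4 in the knockout, 0 and 1 between lines in DMSO, 0 and 0 at 6 h, 0 and 2 at 24 h, and 0 and 0, then 1 and 1 for the interactions. The mitochondrial counts in the same order were 0 and 1, 1 and 4, 1 and 3, 2 and 4, 1 and 2, 3 and 5, 0 and 1, 0 and 0, 1 and 1, 0 and 0, and 1 and 0. Over all genes the shares higher and lower at this fold, in the same order, were 10.9% and 14%, 22.7% and 24.6%, 9.84% and 11.7%, 23.9% and 24.9%, 12.7% and 15.1%, 16% and 18.1%, 6.02% and 4.01%, 9.18% and 6.88%, 14.1% and 12.9%, 4.24% and 4.34%, and 10.7% and 11.3%.

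With upper-quartile scaling 11 cytosolic genes were higher and 2 lower in WT cells at 6 h, 1 was lower in the knockout at 6 h, 2 were higher between lines in DMSO, and the mitochondrial counts higher were 2 and 4 in WT cells at 6 h and 24 h, 2 in the knockout at 6 h and 5 between lines at 6 h. With library size alone the cytosolic counts were 10 higher and 3 lower in WT cells at 6 h, 2 and 8 lower in the knockout at 6 h and 24 h, 2 and 7 higher between lines in DMSO and at 6 h, and 8 lower for the interaction at 24 h, and the mitochondrial counts higher were 2 in each line at 6 h, 6 between lines at 6 h and 1 for the interaction at 24 h. Without a filter 1 cytosolic gene was lower at 6 h in each line and 2 mitochondrial genes were higher in the knockout. Fitting only the compared groups gave 1 cytosolic gene lower in WT cells at 6 h and 2 higher between lines in DMSO. DESeq2 gave 2 cytosolic genes higher between lines in DMSO and 5 mitochondrial genes lower at 24 h. The ratio of cytosolic to mitochondrial counts without Lars2 was 16.1, 21.0 and 20.3 in WT cells and 13.7, 21.8 and 19.1 in the knockout.

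The sign changes listed are those where the main or the alternative value was called. With library size alone the sign turned for Sars in WT cells at 6 h (-0.018). It also turned for Hars (-0.11) and Kars (-0.030) in the knockout at 6 h, and for Hars (-0.12), Gars (-0.040) and Eprs (-0.16) at 24 h. With upper-quartile scaling it turned for Sars in WT cells at 24 h (-0.016). Sign changes between uncalled values were not listed.

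Leaving out 1 library moved 11 of 312 counts. The mitochondrial genes higher in the knockout at 6 h ranged from 2 to 4, those lower between lines at 24 h from 5 to 9, those higher for the interaction at 24 h from 1 to 4, and the cytosolic genes higher between lines in DMSO from 1 to 2. The replicate block left all 44 counts within 1.5 times. The mean correlation of same-numbered deviations was 0.0136 (-0.0494 to 0.0972 over 45 pairs), against -0.0068 for deviations with other numbers. Of 18 libraries, 9 correlated best with their own number. The labels give only a replicate number, and whether libraries with the same number were handled together is not stated.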
